A study of Mus musculus with 4 samples.

Results

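The heat shock chaperones described here are 10 genes: Hspa1a, Hspa1b and Hspa8 of the HSP70 class, their partners Hsph1 and Dnajb1, the HSP90 genes Hsp90aa1 and Hsp90ab1, the mitochondrial chaperonin pair Hspd1 and Hspe1, and the small heat shock protein gene Hspb1. They were chosen by name, with earlier results of these data known, and all 10 were among the 23418 gene symbols with read counts. The libraries were made from total RNA of B cells from mouse cervical lymph nodes, 2 from the strain labelled NOD.B10 and 2 from the control strain labelled BL/10. The labels give no treatment, age or sex. They also do not say whether a strain's libraries stem from different mice, so the p-values here reflect the variation among 4 libraries, possibly only technical variation. Library totals were 19328803 and 25375678 reads in NOD.B10 and 29372751 and 26150794 reads in BL/10. NOD.B10 is in general use as a model of Sjögren's disease, an autoimmune disease of the salivary and lacrimal glands.

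Chaperones hold unfolded protein chains and release them for folding. HSP70 proteins bind and release short hydrophobic stretches in a cycle driven by ATP: J-domain proteins such as Dnajb1 deliver the client and start ATP hydrolysis, and HSP110 proteins such as Hsph1 exchange the nucleotide. HSP90 proteins act later, on kinases and receptors that are nearly folded, while the Hspd1 and Hspe1 products form a closed chamber in the mitochondrial matrix. Under heat or other protein damage the transcription factor HSF1 binds heat shock elements, repeats of the unit GAA in alternating orientation, and raises Hspa1a and Hspa1b most, whereas Hspa8 and Hsp90ab1 are made at high level in unstressed cells.

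The promoters of Hspa1a, Hspa1b and Hspe1, whose levels differed, and of Hspd1, the neighbour and partner of Hspe1, whose level was not called different, are shown first, since they carry the elements through which this family is known to be controlled and since 2 of them are nearly one sequence. The windows hold the 160 bases upstream of the RefSeq start site, 5′ to 3′ on the gene's own strand, from the reference assembly GRCm38.p6 and not from either strain, and capitals mark heat shock element letters. Of the 10 chaperones, 7 had a promoter window; Hspa8, Hsp90aa1 and Hsp90ab1 had none and are named only.
Hspa1a, chr17:34972157-34972316, minus strand: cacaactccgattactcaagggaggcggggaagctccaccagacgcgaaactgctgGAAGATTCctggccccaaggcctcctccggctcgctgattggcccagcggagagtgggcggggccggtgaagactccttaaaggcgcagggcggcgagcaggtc
Hspa1b, chr17:34959239-34959398, minus strand: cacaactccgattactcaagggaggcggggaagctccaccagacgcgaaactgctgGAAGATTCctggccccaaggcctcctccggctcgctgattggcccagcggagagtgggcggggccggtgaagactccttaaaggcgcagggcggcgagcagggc
Hspe1, chr1:55087988-55088147, plus strand: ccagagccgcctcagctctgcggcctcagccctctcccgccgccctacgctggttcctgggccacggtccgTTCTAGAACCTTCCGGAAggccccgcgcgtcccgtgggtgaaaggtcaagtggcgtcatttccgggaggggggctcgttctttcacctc
Hspd1, chr1:55087933-55088092, minus strand: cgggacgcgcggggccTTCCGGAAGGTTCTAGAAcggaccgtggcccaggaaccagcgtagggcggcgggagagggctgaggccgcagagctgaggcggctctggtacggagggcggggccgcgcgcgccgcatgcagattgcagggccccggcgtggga
The Hspa1a and Hspa1b windows were identical at 159 of the 160 bases, and each held 1 copy of GAANNTTC, starting 104 bases upstream of the start site. The Hspe1 window and the second of 2 Hspd1 windows hold the same element read from opposite strands, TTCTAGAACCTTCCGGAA on the Hspe1 strand and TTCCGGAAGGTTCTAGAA on the Hspd1 strand. It contains 2 overlapping 3-unit runs, GAANNTTC with a further GAA 2 bases downstream and the reverse complement of that form. Hspb1 had 2 copies of GAANNTTC, and the windows of Hsph1 and Dnajb1 had neither GAANNTTC nor the 3-unit form. The other arrangement of the units, TTCNNGAA, was not searched on its own, and the letters ttctcgaa occur in both Hsph1 windows. Searched on both strands over the 250 bases upstream, GAANNTTC occurred in 6.69% of 32817 mouse promoter windows and the 3-unit form in 0.466%. TATAAA, searched on the gene strand, was found in 7.6% of all windows and in none of the 10 windows of these genes. A match describes letters in the window and not binding.

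All 4 libraries were labelled as B cells, but they differed in markers of other cell types. With an edgeR adjusted p under 0.05 taken as a call, all 12 of 12 T cell markers were lower in NOD.B10, with summed levels of 20.7 and 13.2 CPM (counts per 1000000 reads, TMM-scaled) against 391 and 468 CPM in BL/10, and of these Themis alone had 0 reads in a NOD.B10 library, the second. Of 5 tested natural killer cell markers all 5 were lower, with sums of 2.85 and 3.76 CPM in NOD.B10 against 13.5 and 24.4 CPM in BL/10, and Klrk1, Klrd1 and Gzma had 0 reads in both NOD.B10 libraries. Of 8 cycling cell markers 5 were lower, with sums of 148 and 142 CPM in NOD.B10 against 220 and 267 CPM in BL/10. Macrophage, dendritic cell and neutrophil markers were lower for 4 of 8, with sums of 36.0 and 17.9 CPM in NOD.B10 against 38.5 and 41.1 CPM in BL/10, and S100a8 and S100a9 had 0 reads in NOD.B10. Plasma cell markers were lower for 2 of 6, with sums of 532 and 474 CPM in NOD.B10 against 1128 and 564 CPM in BL/10. Of 10 B cell markers 1 was higher and 0 were lower, with sums of 10333 and 10958 CPM in NOD.B10 against 9377 and 9560 CPM in BL/10. Over all genes tested, 8.63% were lower and 6.55% higher in NOD.B10. Tested markers with 0 reads in both NOD.B10 libraries, or too few there to meet the filter on low counts, passed it through their BL/10 reads alone. Their calls are a description only, and how many of the 12 T cell calls are of this kind was not counted. In bulk samples fewer cells of a type and less RNA per cell cannot be told apart. The part of the cell type markers in the chaperone results was not tested.

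Of the 10 genes, 9 passed the filter on low counts, and 4 of those 9 were lower in NOD.B10: Hspa1a, Hspa1b, Hspa8 and Hspe1. With the edgeR test 0 were higher, with 0 higher at an unadjusted p under 0.05 and 0 by DESeq2 or limma-voom. Across all 13075 genes tested, 15.2% were called in either direction, 8.63% lower and 6.55% higher (edgeR quasi-likelihood test, Benjamini-Hochberg adjusted p under 0.05 over all genes). The median log2 fold change, NOD.B10 over BL/10, was −0.32 over the 9 chaperones and −0.00 over all genes. Ranges of CPM lay wholly lower in NOD.B10 for 5 of the 9, the 4 called genes and Dnajb1, and wholly higher for 0 of the 9. Over all genes tested, 27.7% lay wholly lower, 27.9% wholly higher and 55.6% either way. Hspa1a passed the filter through its BL/10 reads alone, so it is counted among the 4 as a description only.

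**Figure D1:**
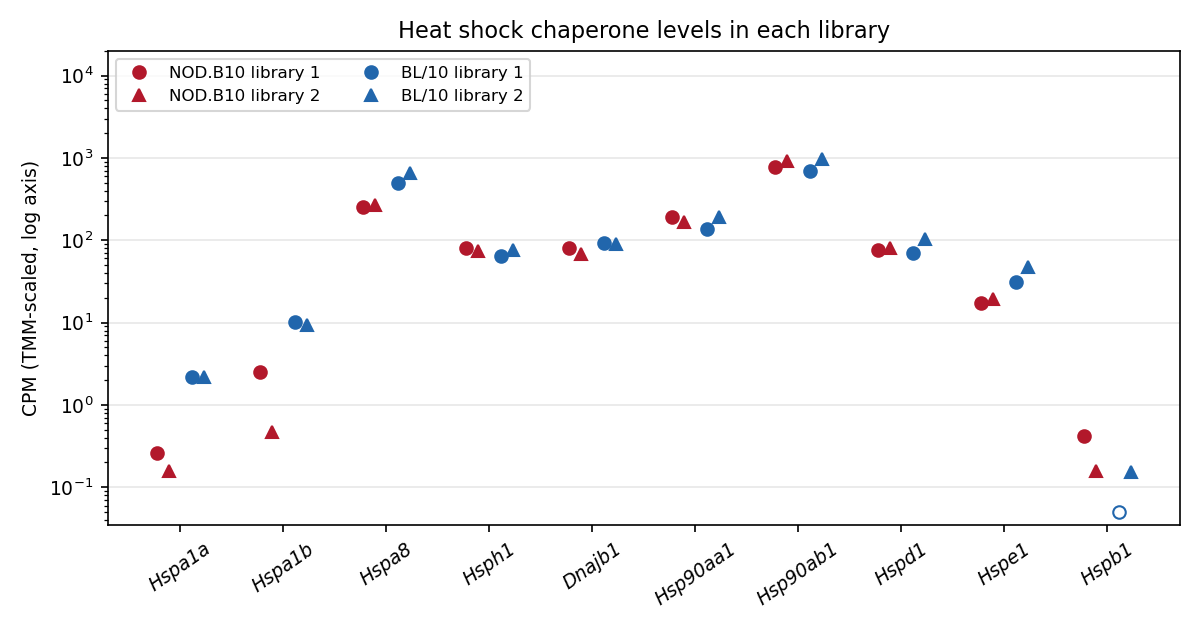
Level of each of the 10 heat shock chaperone genes in CPM (TMM-scaled, log axis) in the 4 libraries, NOD.B10 in red and BL/10 in blue, circles for library 1 and triangles for library 2; the open circle for Hspb1 stands for 0 reads, drawn at the foot of the axis. Hspa1a, Hspa1b, Hspa8 and Hspe1 sit lower in both NOD.B10 libraries, and the 2 NOD.B10 points of Hspa1b lie far apart, at 2.54 and 0.470 CPM.

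In CPM per kilobase, a scale that allows for gene length, Hsp90ab1 had the highest level in both strains. It had 312 and 364 in NOD.B10 and 273 and 383 in BL/10. Hspa8, the constitutive HSP70, came next with 120 and 126 in NOD.B10 against 235 and 309 in BL/10. The ranges of these 2 genes were apart in NOD.B10 and overlapped in BL/10. Hsp90aa1 had rank 3 in both strains, with a mean of 62.3 CPM per kilobase in NOD.B10 and 57.3 in BL/10. Of 100-base windows of the transcript, 63.4% for Hspa8 and 47.5% for Hsp90aa1 occurred in another annotated gene, against 0% for Hsp90ab1. How reads with several alignments were counted is not given, so the order of these genes is uncertain. In NOD.B10 the next genes were Hspd1 at 33.2, Dnajb1 at 32.6, Hspe1 at 23.7 and Hsph1 at 22.2 CPM per kilobase. Of these neighbours, Hspd1 and Dnajb1 overlapped between libraries, as did Hspe1 and Hsph1. In BL/10 the order was Hspe1 at 51.1, Dnajb1 at 40.7, Hspd1 at 37.4 and Hsph1 at 20.3 CPM per kilobase, and the ranges of the first 3 overlapped. Hspe1 thus had rank 6 in NOD.B10 and rank 4 in BL/10. The stress-inducible Hspa1b and Hspa1a and the small heat shock gene Hspb1 made up the foot of the order, below 1 CPM per kilobase in NOD.B10, while Hspa1b reached a mean of 3.48 in BL/10.

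Hspa1a and Hspa1b, the stress-inducible HSP70 genes, had the lowest fold changes of the family. Hspa1a (chromosome 17, 34969359 to 34972156) had 5 and 4 reads, or 0.259 and 0.157 CPM, in the NOD.B10 libraries, against 65 and 57 reads, or 2.20 and 2.21 CPM, in the BL/10 libraries. The groups were well apart, and the BL/10 libraries nearly coincided. Hspa1a fell 10.6-fold, a log2 fold change of −3.41 (SE 0.65, edgeR adjusted p = 0.00289). As it passed the filter on low counts through its BL/10 reads alone, this call is a description only. Pooled over libraries, the level of Hspa1a in NOD.B10 was 0.0912 of that in BL/10 (95% counting interval 0.0407 to 0.179). Hspa1b (chromosome 17, 34956429 to 34959238) had 49 and 12 reads, or 2.54 and 0.470 CPM, in NOD.B10, against 303 and 241 reads, or 10.2 and 9.34 CPM, in BL/10. Both NOD.B10 libraries were below both BL/10 libraries, but they differed 5.40-fold from each other. Hspa1b fell 6.75-fold, a log2 fold change of −2.76 (SE 0.67), close to the threshold at an edgeR adjusted p = 0.0475. Leaving out the first or the second BL/10 library ended this call (edgeR adjusted p = 0.214 and 0.211), with log2 fold changes of −2.68 and −2.82. Without the first NOD.B10 library its log2 fold change was −4.38 and without the second it was −1.94, with 1 NOD.B10 library then assumed to vary as the BL/10 pair did.

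The 2 inducible genes encode almost the same protein and cannot be counted apart with confidence. In GENCODE M21 their coding sequences aligned with 1915 identical bases, 8 mismatches and 3 gapped bases, and their proteins of 641 and 642 amino acids differed by 1 gapped residue and no substitution. Of all 100-base windows of the transcript, 47.1% of those of Hspa1a occurred in Hspa1b and 49.9% of those of Hspa1b occurred in Hspa1a. Summed into 1 row they stayed lower in NOD.B10, with a log2 fold change of −2.86 (SE 0.60, edgeR adjusted p = 0.0286). Hspa1a made up 9.26% and 25% of the summed reads in NOD.B10 and 17.7% and 19.1% in BL/10. The 95% exact binomial interval of the second NOD.B10 share, from 16 reads, ran from 7.27% to 52.4%, and like all such intervals here it covers counting error only. The genes lie in the H2 region of chromosome 17, with 10120 bases between them, and Hspa1a overlaps the annotated gene Gm20481 on the opposite strand over 2225 bases.

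The first NOD.B10 library, which held more Hspa1b than the second, also held more immediate-early transcripts, the genes that cells switch on within minutes of a stimulus or of handling. All 21 of 21 tested immediate-early genes were higher in the first NOD.B10 library than in the second, against 49.2% of all tested genes. The summed level of the immediate-early genes was 3974 and 1867 CPM in NOD.B10 against 2645 and 2470 CPM in BL/10. Fos, a subunit of the AP-1 transcription factor picked out after its values were seen, had 228 and 10.7 CPM in NOD.B10 against 48.0 and 28.2 CPM in BL/10. Hspa1b had 2.54 and 0.470 CPM in these NOD.B10 libraries, against 10.2 and 9.34 CPM in BL/10. Summed markers in the first NOD.B10 library, over the second, were 2.02-fold for macrophages, dendritic cells and neutrophils and 1.57-fold for T cells. They were 1.12-fold for plasma cells, 1.04-fold for cycling cells, 0.943-fold for B cells and 0.758-fold for natural killer cells. The part of these differences in the Hspa1b result was not tested.

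Hspa8, which encodes the constitutive HSP70 that handles new protein chains and uncoats clathrin vesicles, fell by the most CPM of the 4 called genes. Hspa8 (chromosome 9, 40801276 to 40805202) had 4878 and 6765 reads, or 253 and 265 CPM, in NOD.B10, against 14614 and 16786 reads, or 494 and 651 CPM, in BL/10. The NOD.B10 libraries differed 1.05-fold and the BL/10 libraries 1.32-fold, and the groups did not overlap. Hspa8 fell 2.21-fold (log2 fold change −1.14, SE 0.13, edgeR adjusted p = 8.97e-05), and it was called under every alternative tried. Among 100-base windows of the Hspa8 transcript, 63.4% also occurred in another annotated gene, chiefly the pseudogene Gm15459, which had no row in the count table. How reads with several alignments were counted is not given in the sources used here.

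Hspe1, the lid of the mitochondrial chaperonin, was lower in NOD.B10 while its partner Hspd1, the barrel, did not pass the test. Hspe1 (chromosome 1, 55088148 to 55091317) had 330 and 493 reads, or 17.1 and 19.3 CPM, in NOD.B10, against 917 and 1225 reads, or 31.0 and 47.5 CPM, in BL/10. Both NOD.B10 values were below both BL/10 values, and the BL/10 pair differed 1.53-fold. Hspe1 fell 2.15-fold (log2 fold change −1.10, SE 0.20, edgeR adjusted p = 0.00358), and it too was called under every alternative tried. Hspd1 (chromosome 1, 55077833 to 55088243) had 75.2 and 79.9 CPM in NOD.B10 against 70.8 and 104 CPM in BL/10. The NOD.B10 values lay inside the BL/10 range, with a log2 fold change of −0.17 (SE 0.17, edgeR adjusted p = 0.585). Without the first BL/10 library Hspd1 was called lower (log2 fold change −0.42, edgeR adjusted p = 0.0298), and without the second its value was 0.12 (edgeR adjusted p = 0.647).

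The 2 chaperonin genes lie head to head on opposite strands, and their gene bodies overlap by 96 bases. The element printed above lies upstream of the Hspe1 start site and of the second RefSeq start site of Hspd1, and inside the Hspd1 gene body as annotated from its first start site, whose own window held 0 copies of GAANNTTC. Within each library, Hspe1 took 18.5% and 19.5% of the reads of the pair in NOD.B10, against 30.4% and 31.4% in BL/10. These shares do not depend on library scaling, and the 95% exact binomial intervals ran from 16.8% to 21.1% over the NOD.B10 libraries and from 28.8% to 32.9% over the BL/10 libraries. The mean share was 19.0% ± 0.659 in NOD.B10 and 30.9% ± 0.680 in BL/10 (SD, n = 2 each), although both genes were higher in the second BL/10 library than in the first. The difference of means was −11.9 percentage points, with an exact permutation p = 0.333 (two-sided), the smallest that 2 against 2 libraries allow. Among 100-base windows of the transcript, 22.4% of Hspe1 and 26.9% of Hspd1 occurred in another annotated gene.

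**Figure D2:**
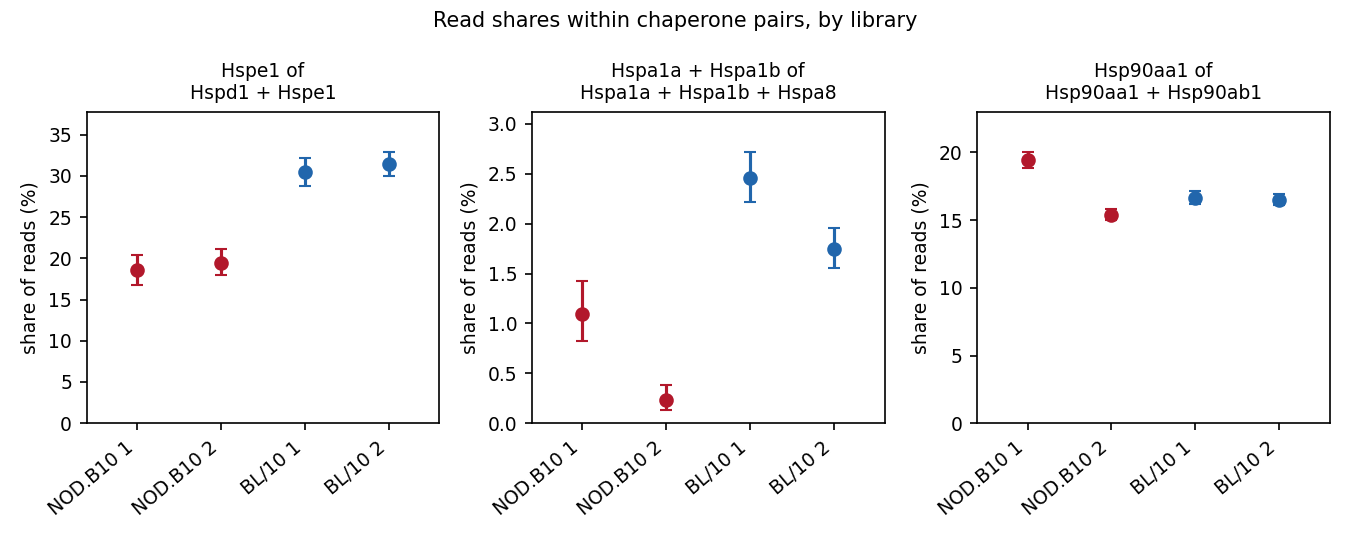
Share of reads, in percent, taken by Hspe1 within the chaperonin pair, by the inducible Hspa1a plus Hspa1b within these and Hspa8, and by Hsp90aa1 within the HSP90 pair, in each NOD.B10 (red) and BL/10 (blue) library, with 95% exact binomial intervals. Hspe1 shares are near 19% in NOD.B10 and near 31% in BL/10, inducible HSP70 shares are lower in NOD.B10, and Hsp90aa1 shares overlap.

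The inducible share of HSP70 reads was also lower in NOD.B10. Hspa1a plus Hspa1b took 1.09% and 0.236% of the reads of these genes and Hspa8 in NOD.B10, against 2.46% and 1.74% in BL/10 (exact permutation p = 0.333, two-sided, the smallest possible). For the HSP90 pair the Hsp90aa1 share was 19.4% and 15.4% in NOD.B10, on either side of the 16.6% and 16.5% in BL/10.

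The HSP70 partners were not called. Dnajb1 (chromosome 8, 83608175 to 83612653), the J-domain protein that works with inducible HSP70, had 79.9 and 67.8 CPM in NOD.B10 against 93.1 and 91.2 CPM in BL/10. Its groups did not overlap, but the difference did not pass the test (log2 fold change −0.32, SE 0.12, edgeR adjusted p = 0.101). Hsph1 (chromosome 5, 149616843 to 149636498), the nucleotide exchange partner, had 80.5 and 73.9 CPM in NOD.B10 against 64.9 and 76.1 CPM in BL/10, with overlapping groups and a log2 fold change of 0.13 (SE 0.13, edgeR adjusted p = 0.573). No 100-base window of either gene was shared with another annotated gene.

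Nor were the HSP90 genes called with all libraries. Hsp90aa1 (chromosome 12, 110691036 to 110696395), the inducible form, had 189 and 166 CPM in NOD.B10 against 137 and 190 CPM in BL/10. Hsp90ab1 (chromosome 17, 45567778 to 45573261), the constitutive form, had 782 and 912 CPM in NOD.B10 against 685 and 960 CPM in BL/10. For both genes the NOD.B10 values lay between the BL/10 values. Their log2 fold changes were 0.12 (SE 0.15, edgeR adjusted p = 0.689) for Hsp90aa1 and 0.04 (SE 0.16, edgeR adjusted p = 0.912) for Hsp90ab1. Without the second BL/10 library both were called higher in NOD.B10, at log2 fold changes of 0.36 and 0.30 (edgeR adjusted p = 0.0379 and 0.0433), and without the first both were below 0, at −0.10 and −0.18.

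Hspb1 (chromosome 5, 135887919 to 135889563), a small heat shock protein that binds unfolding proteins without ATP, was barely detected. It had 8 and 4 reads in NOD.B10 against 0 and 4 reads in BL/10, and it did not pass the filter. The count of 0 allows a level of up to 0.101 CPM in the first BL/10 library. Tested with no filter, its log2 fold change was 1.84 (SE 1.82, edgeR adjusted p = 0.594), which did not pass the test. Pooled over libraries, the level of Hspb1 in NOD.B10 was 3.71-fold that in BL/10 (95% counting interval 1.12 to 15.8, counting error only). The second libraries of the 2 strains nearly coincided, at 0.157 CPM in NOD.B10 and 0.155 CPM in BL/10.

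**Figure D3:**
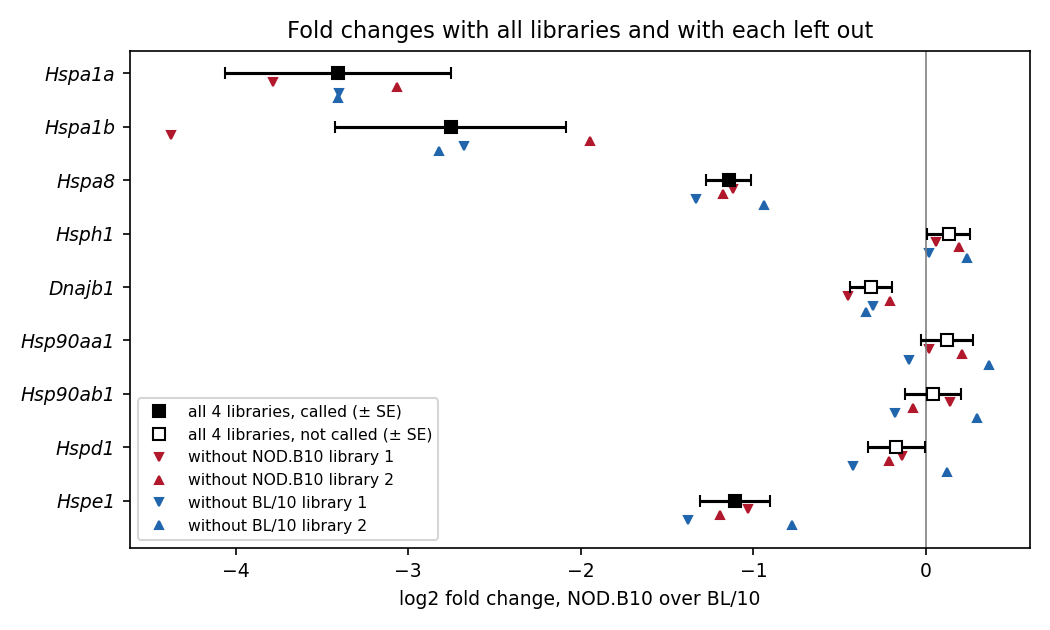
Log2 fold change, NOD.B10 over BL/10, of the 9 tested chaperones with all 4 libraries (squares, filled where called, bars ± SE) and with each library left out (triangles). Hspa1a, Hspa8 and Hspe1 stay well below 0 throughout, Hspa1b moves between −4.38 and −1.94 with the NOD.B10 library left out, and Hsp90aa1, Hsp90ab1 and Hspd1 change sign with a BL/10 library. Hsp90ab1 is also below 0 without the second NOD.B10 library, at −0.07.

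The spread between libraries of a strain had its own pattern. In BL/10, 7 of the 9 tested chaperones were higher in library 2 than in library 1 counted over CPM, against 49.3% of all tested genes. For 6 of these the difference was beyond counting error, a count not made over all tested genes. Hspe1 was 1.53-fold higher there, Hspd1 1.47-fold, Hsp90ab1 1.40-fold, Hsp90aa1 1.39-fold, Hspa8 1.32-fold and Hsph1 1.17-fold, each with a 95% counting interval above 1. Between the BL/10 libraries 13.0% of all tested genes differed more than Hspe1 and 44.3% more than Hsph1, in either direction. For Hspa1a, the other of the 7, and for Hspa1b and Dnajb1, which were lower in library 2, the ratios of library 2 over library 1 were 1.01, 0.913 and 0.980, with counting intervals that span 1. Other lists were also higher in the second BL/10 library: 8 of 9 genes of TRiC, the cytosolic chaperonin, with a summed level 1.23-fold that of the first, 5 of 6 prefoldin genes, with a sum 1.28-fold, 5 of 5 natural killer cell markers, 1.80-fold, and 6 of 8 cycling cell markers, 1.22-fold. All 6 of 6 plasma cell markers were lower there, with sums of 564 CPM in the second BL/10 library and 1128 CPM in the first. The part of these markers in the chaperone spread was not tested. The median absolute log2 difference between BL/10 libraries was 0.40 over the 9 chaperones and 0.20 over all tested genes. Over tested genes at an average log2 CPM of 3 or more it was 0.15. Of the 9 chaperones only Hspa1a and Hspa1b lay under that level.

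In NOD.B10 the median absolute log2 difference between libraries was 0.18 over the 9 chaperones, as it was over all tested genes. Over tested genes at an average log2 CPM of 3 or more it was 0.13. Hspa8, Hspd1, Hspe1, Hsph1, Hsp90aa1, Hsp90ab1 and Dnajb1 differed between the NOD.B10 libraries by at most 1.18-fold, the value of Dnajb1, which differed 1.02-fold between the BL/10 libraries. Hspa1b differed 5.40-fold (95% counting interval 2.83 to 11.2), and only 1.94% of tested genes differed more between those libraries. Hspa1a differed 1.65-fold, with a counting interval from 0.356 to 8.34 that its 9 reads leave wide.

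**Figure D4:**
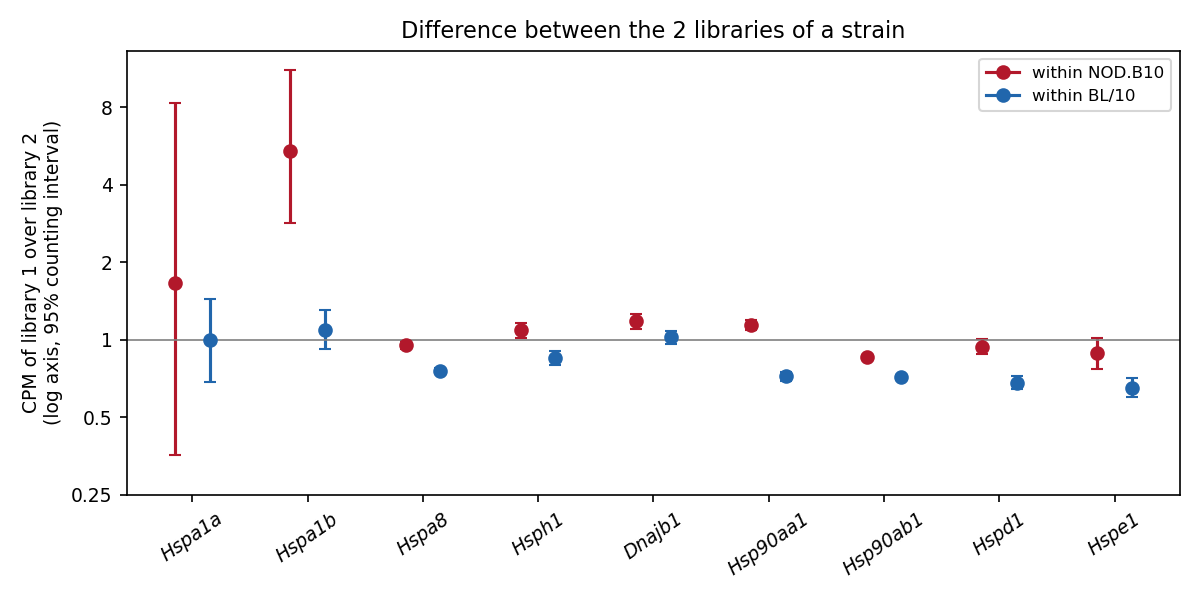
CPM of library 1 over library 2 within NOD.B10 (red) and within BL/10 (blue) for the 9 tested chaperones, on a log axis with 95% counting intervals. Most BL/10 ratios lie below 1, from 0.652 for Hspe1 upward, while Hspa1b stands apart in NOD.B10 at 5.40.

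The rest of the chaperone network showed few differences between the strains. Of 111 other chaperone, co-chaperone and heat shock factor genes, 100 were tested, 1 rose and 2 fell, against 15.2% called over all genes, and their median log2 fold change was 0.03. Hsf1, the main heat shock transcription factor, had 56.5 and 62.4 CPM in NOD.B10 against 60.9 and 50.9 CPM in BL/10 (log2 fold change 0.09, SE 0.13, edgeR adjusted p = 0.736). Hsf2 had 9.43 and 7.56 CPM in NOD.B10 against 9.02 and 8.49 CPM in BL/10 (edgeR adjusted p = 0.934). Values of both factors overlapped between strains.

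Among 39 tested J-domain genes 1 rose and 1 fell. Dnajc10, an endoplasmic reticulum protein that reduces disulfide bonds, had 117 and 116 CPM in NOD.B10 against 84.7 and 87.7 CPM in BL/10 (log2 fold change 0.43, SE 0.11, edgeR adjusted p = 0.0174), a call lost without the first or the second NOD.B10 library (edgeR adjusted p = 0.0873 and 0.0594). Dnajc6, which encodes auxilin and recruits Hspa8 to clathrin coats, had 2 and 2 reads in NOD.B10 against 74 and 17 reads in BL/10 (log2 fold change −4.07, SE 0.95, edgeR adjusted p = 0.0093). Dnajc6, like Hspa1a, passed the filter on low counts through its BL/10 reads alone, so it is listed among the genes that fell as a description only. Pooled over libraries its level in NOD.B10 was 0.0543 of that in BL/10 (95% counting interval 0.0145 to 0.144). The BL/10 libraries differed 3.79-fold in Dnajc6, and leaving out the first ended its call (log2 fold change −2.80, edgeR adjusted p = 0.29), while without the second its value was −4.73. Of 26 co-chaperones tested, Cdc37, which brings kinases to HSP90, fell, with 94.6 and 92.5 CPM in NOD.B10 against 113 and 135 CPM in BL/10 (log2 fold change −0.40, SE 0.12, edgeR adjusted p = 0.0392). That call was lost without either NOD.B10 library and without the second BL/10 library (edgeR adjusted p from 0.0863 to 0.152).

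By the edgeR test 0 genes of the other classes were called: 11 other HSP70 and HSP110 genes, 2 other HSP90 genes, 2 other small heat shock genes, 9 TRiC genes, 6 prefoldin genes and 5 heat shock factors and regulators were tested. Of these 35 genes, 2 had an unadjusted p under 0.05, and DESeq2 and limma-voom called 0 each. In these classes the gene with the smallest p was Hspa1l at a log2 fold change of −0.94, Trap1 at 0.09, Hspb6 at −0.74, Cct6a at −0.29 and Pfdn1 at 0.46 (edgeR adjusted p from 0.113 to 0.263, and 0.718 for Trap1). Hspa1l, an HSP70 gene best known from testis, lies 546 bases from Hspa1a and had 16 and 36 reads in NOD.B10 against 62 and 58 reads in BL/10. Without a stated strand setting, its reads cannot be told apart from those of an overlapping antisense gene. The HSP70 paralogues of other compartments, picked out after their values were seen, were measured as follows. Hspa5 of the endoplasmic reticulum averaged 552 ± 9.33 CPM in NOD.B10 and 513 ± 63.5 CPM in BL/10 (SD, n = 2 each), and Hspa9 of mitochondria averaged 186 ± 5.06 CPM in NOD.B10 and 164 ± 21.6 CPM in BL/10.

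**Figure D5:**
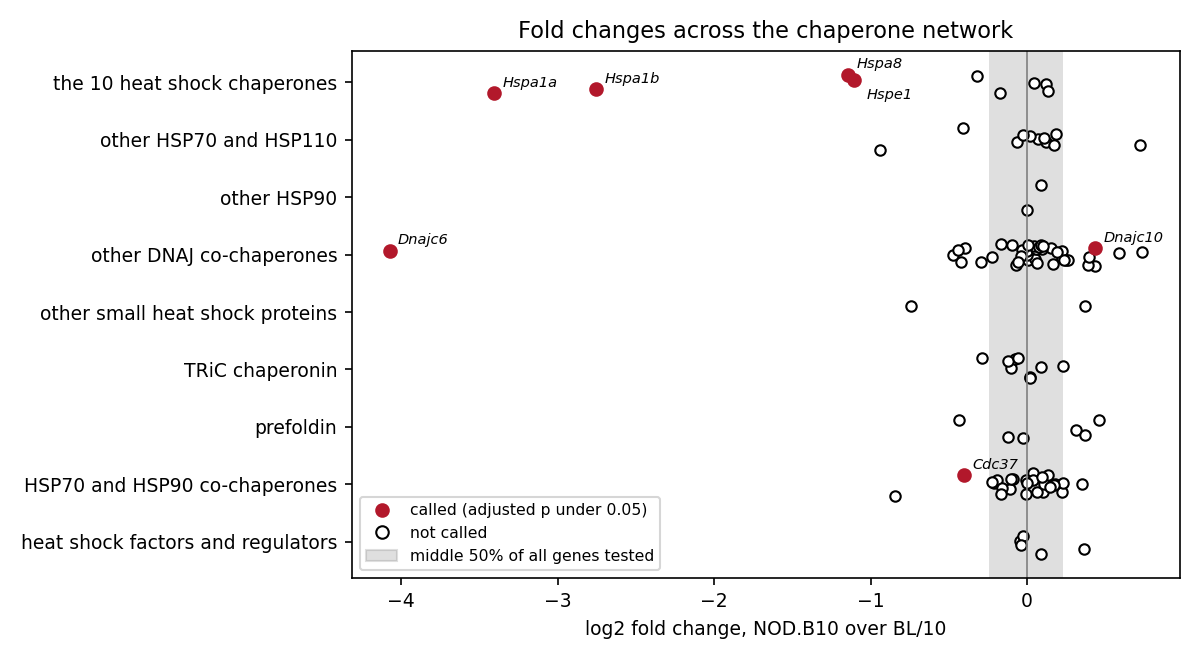
Log2 fold change, NOD.B10 over BL/10, of each tested gene of the 10 heat shock chaperones and of the other chaperone classes, filled red where called, with the middle 50% of all tested genes as a grey band from −0.25 to 0.23. Called genes are Hspa1a, Hspa1b, Hspa8, Hspe1, Dnajc6, Dnajc10 and Cdc37, and most open points lie in or near the band.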

How the data were processed

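The authors deposited 1 table of raw read counts per gene symbol, with gene lengths in bases as another column, for 4 libraries. Per the submitters' processing notes, HISAT2 2.1.0, SAMtools 1.3, Subread 1.6.5 and featureCounts were used with the build mm10; the annotation, strand setting and treatment of reads with several alignments are not given in the sources used here. Columns were matched to samples by library name. Of 23418 symbols, 6360 had 0 reads in every library.

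Strains were compared with edgeR 4.0.16 in R 4.3.3 (TMM, robust quasi-likelihood test, two-sided; filterByExpr at min.count 10 and min.total.count 15) over 13075 genes, with Benjamini-Hochberg adjustment. The procedure was tested on simulated data. The SE is the fold change divided by the root of the F statistic. Differences between libraries over all genes used 0.5 added reads. Intervals are at 95%, and a count of 0 is limited at 3 reads.

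The members and lists were chosen with earlier results of these data known. Named genes were all 10 members, Hsf1, Hsf2 and, per class, up to 2 called genes with the smallest p, or 1 if none. Promoters are from RefSeq on GRCm38.p6 and transcripts from GENCODE M21, both on the assembly of mm10.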

Additional observations from a re-analysis of the deposited data

How the results depend on the processing

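Hspa1a, Hspa8 and Hspe1 were called lower in all alternatives that tested them (RLE or upper-quartile factors, DESeq2, limma-voom, no filter, a minimum count of 50, non-robust dispersion, a replicate block, each library left out, and, for Hspa8 and Hspe1, Hspa1a and Hspa1b summed). Their log2 fold changes ran from −3.78 to −3.06, from −1.33 to −0.94 and from −1.38 to −0.78. Hspa1b also lost its call with upper-quartile factors (edgeR adjusted p = 0.0513), and over its alternatives the adjusted p ran from 2.13e-17, without the first NOD.B10 library, to 0.214, without the first BL/10 library. With 1 library left out, between 4 and 5 chaperones were called, 3 to 4 lower and 0 to 2 higher, and the fold changes ran from −0.18 to 0.30 for Hsp90ab1, from −0.10 to 0.36 for Hsp90aa1, from −0.42 to 0.12 for Hspd1, from −0.043 to 0.22 for Hsf1 and from −0.22 to 0.11 for Hsf2. With upper-quartile factors, and with Hspa1a and Hspa1b summed, 3 were called, all lower. Of the other chaperone network, 1 to 6 genes were then called, 0 to 5 higher and 1 to 4 lower. Limma-voom called 1 of these genes and 0 lower, losing Dnajc6 and Cdc37. The stricter filter, non-robust dispersion and the replicate block each called 1 lower; the filter no longer tests Dnajc6, and the others lost Cdc37. Over all genes 1986 were called, 1758 to 2199 with 1 library left out. The replicate numbers pair nothing in the labels, and the deviations of same-numbered libraries correlated at −0.0141 across genes. With the replicate block 4 chaperones, 2 network genes and 1802 genes in all were called. Reads limit Hspa1a (9 in NOD.B10), Hspb1 (12 in NOD.B10, 4 in BL/10) and Dnajc6, and the calls of Hspa1a and Dnajc6 are a description only. The cause of these changes was not tested.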
